A study of Homo sapiens with 16 samples.

Results

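The oxidative phosphorylation system is encoded in part by nuclear genes, and 82 of the 28502 gene symbols in the deposited expression tables belong to it by their names. They are the NDUFA, NDUFB, NDUFC, NDUFS and NDUFV subunits of complex I, SDHA to SDHD of complex II, the UQCR genes and CYC1 of complex III, the COX subunits of complex IV, and the ATP5 subunits of complex V under their older symbols. The choice used names only and no expression value, but it was made with earlier results of these data known. Of the 82, 76 had a mean of at least 1 FPKM (fragments scaled to transcript length and library size) over the 6 libraries and entered the tests.

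RNA was measured in HCT116, an established human colorectal carcinoma line, by poly(A) RNA-seq. Cells were transfected with an oligonucleotide labelled NC, an abbreviation the sources do not spell out, with an siRNA to EZH1 (siEZH1), a histone H3 lysine 27 methyltransferase, or with an siRNA to UXT (siUXT), a prefoldin-like protein. Each transfection was followed by PBS, a buffer, or by TNF, a cytokine that activates NF-κB, at a dose and time that the labels leave out. The series title names the regulation of NF-κB target genes by EZH1, SUZ12 and UXT as the question. Every condition has 1 library, and nothing in the labels tells if PBS and TNF cells of a transfection were separate cultures. Replicate spread was therefore not measured, and the p-values below use only the departure of the 6 libraries from additive effects of transfection and treatment.

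Complexes I and II pass electrons from NADH and succinate to ubiquinone, complex III passes them to cytochrome c, and complex IV passes them to oxygen. Complexes I, III and IV pump protons across the inner mitochondrial membrane, and complex V, the ATP synthase, uses the gradient to make ATP. Complexes I, III, IV and V also hold mitochondrially encoded proteins, whose genes were not analysed here, while nuclear genes supply the rest, including many small accessory subunits. The transcription factors NRF1, GABPA of the ETS family and YY1 are known regulators of nuclear respiratory genes.

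Values in series are given in the order NC PBS, NC TNF, siEZH1 PBS, siEZH1 TNF, siUXT PBS and siUXT TNF. The targeted gene EZH1 was at 5.45, 5.12, 4.05, 4.14, 6.27 and 6.24 FPKM, so the siEZH1 libraries held 0.742 and 0.809 of the NC level under PBS and TNF. UXT was at 62.2, 59.6, 64.9, 77.1, 27.7 and 24.6 FPKM, and the siUXT libraries held 0.445 and 0.412 of the NC level. Both targets were lowest in the libraries labelled with their siRNA, by a small margin for EZH1. Relative depth, from the size of 1 fragment among low values, was between 0.721 and 1.02 of that of NC PBS, and was lowest in NC TNF and siEZH1 TNF. Epithelial markers KRT8, KRT18, KRT19, EPCAM and CDH1 were expressed, while the intestinal markers CDX1 and VIL1 were at or near 0. The leukocyte markers PTPRC and CD3E were listed at 0 in all 6 libraries. The siUXT PBS library stood apart, with 16.4% of 11845 tested loci at least 1.5-fold below NC PBS, against 3.06% for siUXT TNF below NC TNF.

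Promoter sequences came from RefSeq on GRCh38.p14, while the FPKM values were made on hg19. Windows of 250 bases before to 50 after an annotated start were found for 62 of the 76 tested genes, 75 windows in all. The NRF1 letters, GCGCA and GCGC with any base between them, occurred in 20% of these windows on either strand, against 5.74% of all 34943 windows and 7.32% of the 22049 windows of protein-coding genes. CCGGAAG (ETS family) occurred in 28.0%, against 10.2% and 12.8%, and AANATGGCG (YY1) in 25.3%, against 3.19% and 4.25%. All 3 strings were thus more frequent in these windows than in the reference set. Of the 19 YY1 matches, 15 began after the start, and the string itself holds ATG. A site shared by overlapping windows of a gene, as in ATP5J and NDUFS1, is counted for each window. A match is a description of the letters and not evidence of binding.

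The following sites, each 30 bases, are those of the genes with the lowest siEZH1 levels relative to NC. They are shown because those genes carry different strings. Capitals mark the matched letters, or their reverse complement, on the gene's own strand.

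UQCR10, NRF1 letters, chr22:29767351-29767380, plus strand: gtcggccccaGCGCAGGCGCggtggcgcga

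UQCR10, YY1 letters, chr22:29767386-29767415, plus strand: actgtgaagaAACATGGCGgccgcgacgtt

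NDUFA7, YY1 letters, chr19:8321342-8321371, minus strand: tcgcggacggAAGATGGCGtccgccacccg

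NDUFA11, NRF1 letters, chr19:5903869-5903898, minus strand: ccggtccccgGCGCGTGCGCgcgatccatg

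COX8A, ETS letters, chr11:63974591-63974620, plus strand: cagctccagaaCTTCCGGccagcgcagcca

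NDUFB7, ETS letters, chr19:14572072-14572101, minus strand: gcctaaatgacCCGGAAGctgtgtctgact

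ATP5G1 and ATP5G2, which were also lower in both siEZH1 libraries, had none of the 3 strings in their windows. The 250 bases before the start of UQCR10, the lowest of these genes relative to NC, are given with those of NDUFB3, a complex I gene whose siUXT values went opposite ways under PBS and TNF. In the first, capitals mark the part of the NRF1 letters that precedes the start, and the second held none of the 3 strings.

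UQCR10, chr22:29767119-29767368, plus strand: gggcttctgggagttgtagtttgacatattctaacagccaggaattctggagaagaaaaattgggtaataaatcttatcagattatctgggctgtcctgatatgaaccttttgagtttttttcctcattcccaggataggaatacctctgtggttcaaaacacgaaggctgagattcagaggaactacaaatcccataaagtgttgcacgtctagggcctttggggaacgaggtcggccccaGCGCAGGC

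NDUFB3, chr2:201071751-201072000, plus strand: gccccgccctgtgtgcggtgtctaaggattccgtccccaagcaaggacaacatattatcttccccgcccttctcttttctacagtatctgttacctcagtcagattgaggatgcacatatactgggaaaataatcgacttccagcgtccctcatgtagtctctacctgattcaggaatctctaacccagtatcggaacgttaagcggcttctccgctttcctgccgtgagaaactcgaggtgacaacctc

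Respiratory chain transcripts were abundant. Their FPKM values summed to 2.57%, 2.56%, 2.37%, 2.35%, 2.70% and 2.57% of all FPKM in the 6 libraries. The median over the 76 genes was between 106 and 123 FPKM, while the median tested locus was between 9.51 and 10.4 FPKM. Of the 76, 41 had a mean above 100 FPKM. Complex V and complex IV genes had the highest medians of mean FPKM, 224 and 214, followed by complex III at 116, complex I at 76.1 and complex II at 72.5. FPKM is scaled to transcript length, but the annotation behind it is not given, so comparisons of level between genes are approximate.

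Within each complex the levels of the subunits spanned a wide range. Among 36 complex I genes the mean went from 13.4 FPKM for NDUFV3 to 323 for NDUFB9, an accessory subunit. Among 9 complex III genes it went from 20.3 for UQCRB to 508 for UQCRH, the hinge protein next to cytochrome c1. The 12 expressed complex IV genes, with NDUFA4 counted there, went from 56.1 for NDUFA4 to 704 for COX7C. Complex V went from 90.8 for ATP5J to 698 for ATP5B, the catalytic beta subunit. The 4 complex II genes were closest together, between 56.2 for SDHC and 83.5 for SDHD, both membrane anchors.

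Of paralogs used in different tissues, the general forms carried the expression. COX4I1 had a mean of 484 FPKM and COX4I2 was listed at 0 in all 6 libraries, as were COX6A2, the muscle form beside COX6A1 (419 FPKM), and COX7B2, beside COX7B (194 FPKM). COX7A1, the muscle form beside COX7A2 (205 FPKM) and COX7A2L (57.9 FPKM), was at 0.198 FPKM with NC under PBS, at 0.200 with siUXT under TNF, and listed at 0 elsewhere. COX6B2, beside COX6B1 (312 FPKM), lay between 0.184 and 0.919 FPKM, and NDUFA4L2, beside NDUFA4, between 0.111 and 0.638 FPKM. These 6 genes had means under 1 FPKM and were not tested.

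Variation over the 6 libraries differed between the genes, and the counts that follow here were not made for all loci. In 46 of the 76 the highest library was less than 1.5-fold above the lowest, and the steadiest were NDUFB4 (1.14-fold), ATP5E and ATP5A1 (both 1.15-fold). In 11 genes the highest library was at least 2-fold above the lowest, namely NDUFA5 (8.19-fold), UQCRB (3.32-fold), NDUFA7 (3.07-fold), UQCR10 (2.84-fold), NDUFB5 (2.50-fold), NDUFB3, COX8A, ATP5D, NDUFB7, NDUFS7 and NDUFA11. Of the 11, 7 are complex I genes, and NDUFS7, an iron-sulfur subunit, is the only one of the 11 from the complex I core. The lowest library was siEZH1 PBS for 26 of the 76 genes and NC TNF for 19, and siUXT PBS was the highest for 31 and the lowest for 15. The heat map of changes shows one group of genes low in both siEZH1 libraries and another low in siUXT PBS.

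**Figure D1:**
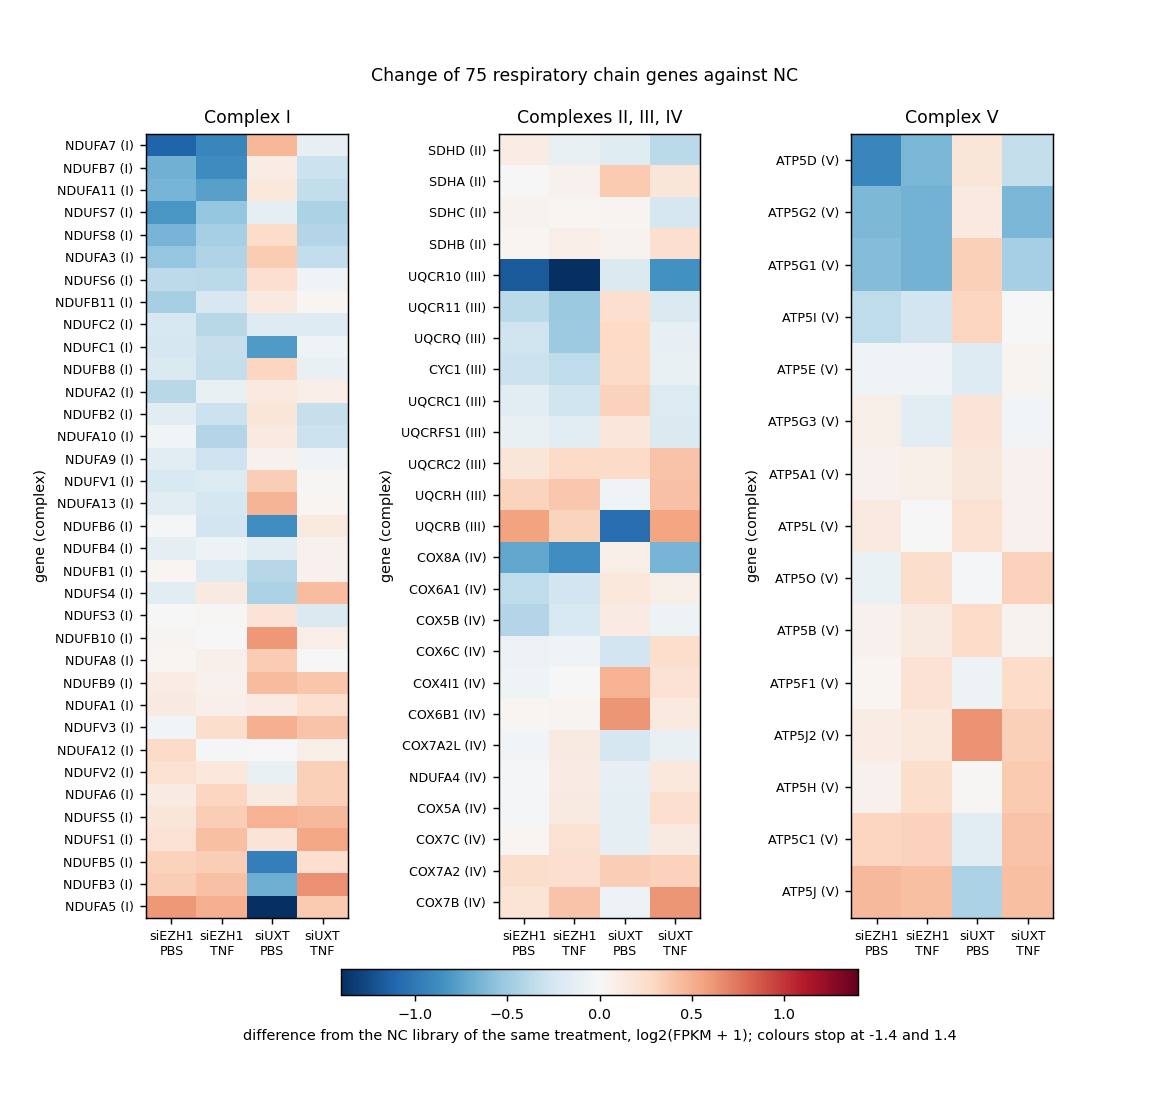
Log2(FPKM + 1) difference of each of 75 genes from the NC library of the same treatment, with columns for siEZH1 and siUXT under PBS and TNF and rows ordered by the mean siEZH1 difference within each complex. Colours end at -1.4 and 1.4, so NDUFA5 in siUXT PBS, at -2.10, is shown at the end of the scale, UQCR10, NDUFA7 and COX8A are dark blue in both siEZH1 columns, and NDUFA5, UQCRB and NDUFB5 in the siUXT PBS column.

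With siEZH1, a set of subunits from 4 complexes was lower than with NC under both treatments, while the median respiratory gene was near the NC level. Of the 76 genes, 8 were at least 1.5-fold lower in both pairs: UQCR10 of complex III, NDUFA7, NDUFA11 and NDUFB7 of complex I, COX8A of complex IV, and ATP5D, ATP5G1 and ATP5G2 of complex V. Among all tested loci 2.38% met that condition, and none of the 76 genes was 1.5-fold higher in both pairs (0.464% of loci). In these bulk libraries, fewer cells and less RNA per cell cannot be told apart. Median log2 differences over the 76 genes were -0.03 under PBS and -0.02 under TNF, beside 0.00 and 0.02 over all loci. Under PBS, 10 genes were at least 1.5-fold lower and 1 higher (5.15% and 2.13% of loci). Under TNF, 8 were lower and 0 higher (6.05% and 3.71% of loci).

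UQCR10, a small subunit of complex III, was at 253, 316, 111, 120, 219 and 175 FPKM. Both siEZH1 libraries lay below the other 4, at 0.439 and 0.379 of the NC level. NDUFA7, an accessory complex I subunit, was at 67.4, 75.5, 30.5, 39.6, 93.6 and 69.9 FPKM. Its siEZH1 values were again the lowest, at 0.452 and 0.525 of NC, and its siUXT PBS value was the highest.

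The other 2 complex I genes of the set also had their lowest values with siEZH1. NDUFB7, a subunit on the intermembrane space side, was at 94.4, 123, 58.8, 66.5, 101 and 99.4 FPKM. NDUFA11, a membrane subunit whose symbol shares its values with FUT5, was at 160, 210, 102, 123, 178 and 166 FPKM. In both, the 2 siEZH1 libraries lay below all others and NC TNF was the highest. COX8A, a small membrane subunit of cytochrome c oxidase, was at 499, 638, 300, 349, 529 and 405 FPKM. Its siUXT TNF value was also below both NC values.

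The ATP synthase genes divided. ATP5D, the delta subunit of the rotor stalk, was at 161, 179, 85.1, 114, 180 and 142 FPKM, with both siEZH1 libraries lowest. ATP5G1, ATP5G2 and ATP5G3 encode the same mature c-ring protein from separate genes. ATP5G1 was at 282, 351, 185, 221, 356 and 254 FPKM, and ATP5G2 at 188, 232, 121, 146, 207 and 148 FPKM. Both were lowest with siEZH1, ATP5G2 with siUXT TNF close above. ATP5G3 was at 115, 133, 122, 120, 130 and 130 FPKM, with siEZH1 inside the range of the others. The alpha, beta and gamma subunits of the catalytic head were not lower with siEZH1. ATP5A1 was at 1.04 and 1.06 of NC, ATP5B at 1.04 and 1.09, and ATP5C1, the gamma subunit, was at 116, 99.5, 142, 124, 104 and 131 FPKM. Over the 15 complex V genes the median log2 difference was 0.06 under PBS and 0.08 under TNF.

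**Figure D2:**
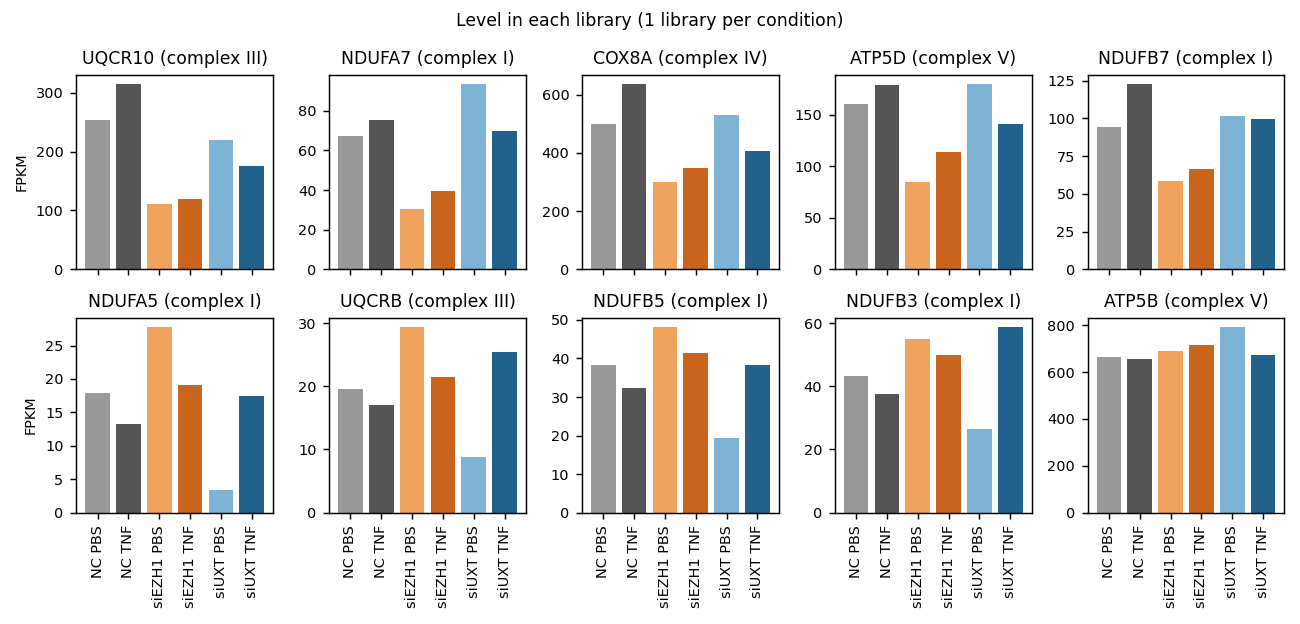
FPKM of 10 genes in each of the 6 libraries, 1 bar per library, with axes from 0. In the upper row both siEZH1 bars are the lowest, as for UQCR10 at 111 and 120 FPKM, and in the lower row NDUFA5, UQCRB, NDUFB5 and NDUFB3 are lowest in siUXT PBS, while ATP5B stays between 655 and 792 FPKM.

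**Figure D3:**
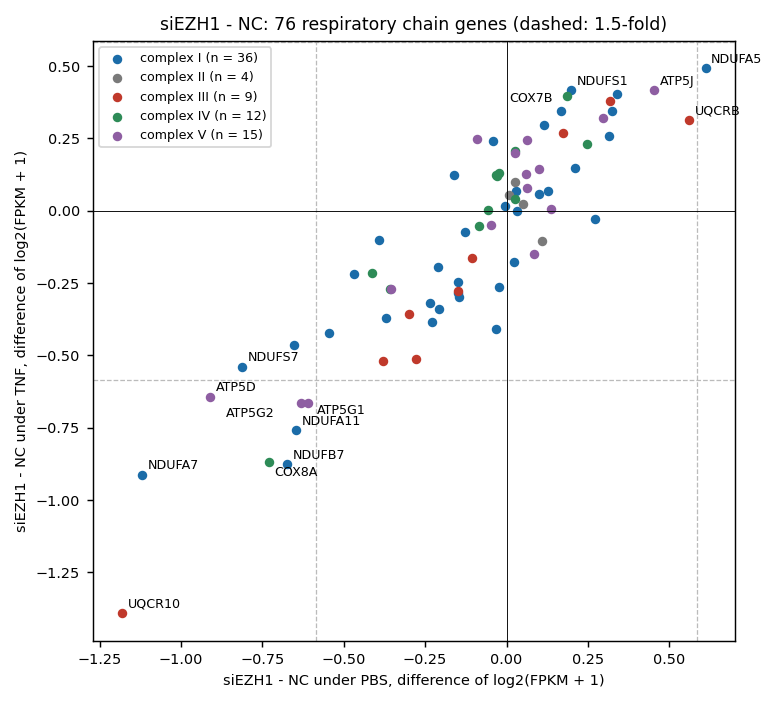
Log2(FPKM + 1) difference of siEZH1 from NC under PBS (x axis) against that under TNF (y axis) for 76 genes, coloured by complex, with dashed lines at 1.5-fold. UQCR10 lies farthest down at -1.18 and -1.39, and no gene passes 1.5-fold upward in both.

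Across the 76 genes the siEZH1 differences under PBS and under TNF, which share no library, had a Spearman correlation of 0.874, and across all loci 0.69. This is a description across genes, which share library, depth and base composition and are not replicates. Both siEZH1 libraries lay below all other 4 for 25 of the 76 genes (19.9% of loci) and above all other 4 for 2, NDUFA5 and NDUFB5 (19.4% of loci). The 25 included CYC1, UQCRC1, NDUFV1, NDUFS7, NDUFS8 and COX5B.

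By complex, the median siEZH1 difference was -0.08 and -0.14 (PBS and TNF) for complex I, 0.04 and 0.04 for II, -0.15 and -0.28 for III, and -0.03 and 0.08 for IV. Within complex I, the 7 core subunits had medians of -0.01 and 0.02 and the 29 accessory ones -0.13 and -0.18. The core subunits differed among themselves. The iron-sulfur subunit NDUFS7 was at 36.4, 42.4, 20.3, 28.9, 33.1 and 30.9 FPKM, and NDUFS8 was at 0.631 and 0.722 of NC. NDUFS1, the largest iron-sulfur subunit, was at 1.15 and 1.35 of NC, NDUFS3 at 0.996 and 1.01, NDUFV1 at 0.862 and 0.872, and NDUFV2 at 1.16 and 1.11. In complex II the siEZH1 values were close to NC, with SDHA at 1.01 and 1.04 of NC and SDHB, its iron-sulfur subunit, at 75 FPKM against 73.7 under PBS and 70.5 against 65.8 under TNF. In complex III the core proteins UQCRC1 and UQCRC2 were at 0.902 and 0.825 and at 1.13 and 1.21 of NC, CYC1 at 0.811 and 0.781, and the Rieske protein UQCRFS1 at 0.929 and 0.893. In complex IV, COX4I1 was at 0.960 and 1.00, COX5A at 0.985 and 1.09, and COX5B at 0.750 and 0.861.

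In the additive limma fit over all 6 libraries, 0 of the 76 genes passed a Benjamini-Hochberg adjusted p of 0.05 for siEZH1, and the lowest adjusted p was 0.602. Over all loci, 0 were called higher and 2 lower (0.0169%). At an unadjusted p under 0.05 stood 10 of the 76 genes, all lower with siEZH1 (6.51% of loci were lower and 1.70% higher at that level). The fitted log2 differences with their SE were -1.29 ± 0.19 for UQCR10, -1.02 ± 0.23 for NDUFA7, -0.80 ± 0.20 for COX8A, -0.78 ± 0.21 for ATP5D and -0.78 ± 0.17 for NDUFB7. They were -0.70 ± 0.18 for NDUFA11, -0.67 ± 0.20 for NDUFS7 and -0.65 ± 0.22 for ATP5G2. The largest positive values were 0.55 ± 0.60 for NDUFA5, 0.44 ± 0.44 for UQCRB, 0.44 ± 0.25 for ATP5J, 0.37 ± 0.34 for NDUFB3 and 0.35 ± 0.16 for UQCRH. The calls depended on the siUXT pair. Without the siUXT PBS library, limma called 13 of the 76 genes higher and 22 lower (11.8% and 14.7% of loci), with 1 residual degree of freedom and a lowest Benjamini-Hochberg adjusted p of 0.00361. Leaving out siUXT TNF instead gave no separate result. In either fit the siUXT library that is kept is fitted exactly. The siEZH1 difference and its error then come from the same NC and siEZH1 libraries. The 8 genes named above were chosen as lower in those libraries, so their place among the 22 adds no support. Without NC PBS, 1 of the 76 was called, UQCR10, lower (0.16% of loci were higher and 0.253% lower).

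With siUXT, the respiratory genes differed from NC in unlike ways under PBS and TNF. The median log2 difference was 0.13 under PBS and 0.06 under TNF, beside 0.04 and 0.01 over all loci. Under PBS, 6 of the 76 genes were at least 1.5-fold lower and 3 higher (16.4% and 4.11% of loci). Under TNF, 3 were lower and 2 higher (3.06% and 3.12% of loci). No gene was 1.5-fold apart the same way in both pairs (0.346% of loci were higher and 0.279% lower in both). Across the 76 genes the 2 sets of differences, which share no library, had a Spearman correlation of -0.142, and across all loci -0.184.

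The 6 genes low in siUXT PBS were NDUFA5, NDUFB3, NDUFB5, NDUFB6 and NDUFC1 of complex I and UQCRB of complex III, all accessory subunits. NDUFA5 was at 17.8, 13.2, 27.8, 19, 3.39 and 17.4 FPKM. UQCRB, a ubiquinone-binding subunit, was at 19.6, 17.1, 29.4, 21.4, 8.84 and 25.4 FPKM. In both the siUXT PBS library was the lowest by far, and the siUXT TNF library was above NC PBS or close to it.

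NDUFB3 was at 43.2, 37.4, 54.9, 49.9, 26.6 and 58.8 FPKM, so siUXT PBS was the lowest library and siUXT TNF the highest. NDUFB5 was at 38.3, 32.4, 48.1, 41.4, 19.2 and 38.2 FPKM. NDUFB6 was at 57.7, 50.4, 56.7, 41.8, 31.1 and 55.5 FPKM. Among these 3, the siUXT TNF library lay within or above the NC values. NDUFC1 was at 77.7, 69.9, 65.9, 55.8, 44.4 and 67.2 FPKM, again lowest in siUXT PBS.

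The genes at least 1.5-fold higher in siUXT PBS were 3, and 0 were past that size when libraries were rescaled by size factors or to the same FPKM sum, while the 6 lower genes stayed past it under both. ATP5J2, the f subunit of the ATP synthase, was at 228, 235, 245, 260, 355 and 297 FPKM, and its symbol shares values with PTCD1. COX6B1, on the intermembrane space side of complex IV, was at 274, 287, 279, 295, 420 and 315 FPKM. NDUFB10 was at 114, 121, 117, 121, 174 and 130 FPKM. In all 3, both siUXT libraries lay above the other 4, with PBS the higher. Both siUXT libraries lay above the other 4 for 13 of the 76 genes (10.4% of loci), whichever treatment was the higher. Among them were COX4I1, SDHA, SDHB, NDUFV1, UQCRC2, NDUFS5 and NDUFB9. Some margins were small, as for SDHA at 70.96 FPKM in siUXT TNF and 70.32 in siEZH1 PBS. NDUFV1 was at 91.11 FPKM in siUXT TNF and 90.4 in NC TNF. This count was not made on rescaled libraries. Only SDHD had both siUXT libraries below the other 4 (7.63% of loci), at 81.8, 95.8, 88.2, 89.2, 72.5 and 73.8 FPKM.

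Under TNF the low genes with siUXT were UQCR10 at 0.556 of NC, COX8A at 0.636 and ATP5G2 at 0.640, which were also among those low with siEZH1. NDUFB3 at 1.57 and COX7B, a small complex IV subunit, at 1.53 of NC were the higher ones. The siUXT and siEZH1 comparisons of 1 treatment share the NC library, so UQCR10 under TNF is low against the same NC value of 316 FPKM in both.

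**Figure D4:**
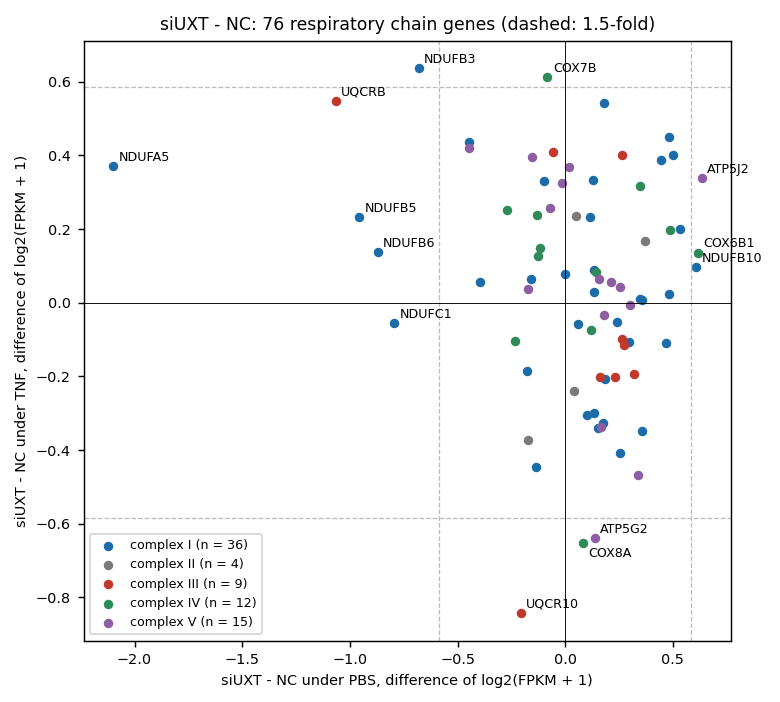
Log2(FPKM + 1) difference of siUXT from NC under PBS (x axis) against that under TNF (y axis) for 76 genes, coloured by complex, with dashed lines at 1.5-fold. NDUFA5, at -2.10 under PBS and 0.37 under TNF, lies far left, and no gene passes 1.5-fold in the same direction on both axes.

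By complex, the median siUXT difference was 0.13 and 0.04 (PBS and TNF) for complex I, 0.04 and -0.04 for II, 0.23 and -0.11 for III, 0.00 and 0.14 for IV, and 0.16 and 0.06 for V. Of the catalytic and cofactor-bearing subunits, NDUFS1 was at 1.14 and 1.48 of NC, NDUFV1 at 1.28 and 1.01, and COX4I1 at 1.4 and 1.15. SDHA, the flavoprotein of complex II, was at 69.9, 63.1, 70.3, 65.6, 90.6 and 71.0 FPKM. ATP5B was at 664, 655, 691, 715, 792 and 675 FPKM, with siUXT PBS the highest library. ATP5A1 was at 1.11 and 1.04 of NC, and COX5A at 0.913 and 1.18.

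For siUXT, 0 of the 76 genes were called by limma, and the lowest Benjamini-Hochberg adjusted p was 0.908. Over all loci it called 3 higher and 2 lower (0.0253% and 0.0169%). At an unadjusted p under 0.05 stood 4 of the 76 genes: NDUFS5 (log2 difference 0.47 ± 0.14 SE), ATP5J2 (0.49 ± 0.15) and NDUFB9 (0.42 ± 0.13) on the higher side and UQCR10 (-0.52 ± 0.19) on the lower (2.16% of loci were higher and 1.49% lower at that level). NDUFA5 had the largest fitted difference, -0.86 ± 0.60, and also the largest error of those named. Others on the lower side were NDUFC1 at -0.43 ± 0.24, NDUFB6 at -0.37 ± 0.31 and NDUFB5 at -0.36 ± 0.32, and on the higher side NDUFV3 at 0.45 ± 0.20 and COX6B1 at 0.38 ± 0.17. Without the siUXT PBS library, limma called NDUFB3 higher and ATP5G2, COX8A and UQCR10 lower (0.439% and 0.65% of loci). Without siUXT TNF it called 20 of the 76 genes higher and 9 lower (12% and 18.4% of loci), so the siUXT call depended on which library was kept.

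Set against each other without the NC libraries, the 2 knockdowns differed in both directions. By fitted difference NDUFA5, lower with siUXT, came first, and then NDUFA7, which was higher. The NDUFA5 difference was -2.71 under PBS and -0.12 under TNF, so it lay almost all in the PBS pair. NDUFA7 was the 1 gene at least 1.5-fold higher with siUXT than with siEZH1 under both treatments (1.2% of loci), and 0 were lower in both (0.718% of loci). Under PBS its level was 93.6 FPKM with siUXT and 30.5 with siEZH1, and under TNF 69.9 and 39.6. Under PBS, 17 of the 76 genes were at least 1.5-fold higher with siUXT and 6 lower (16.7% and 21.7% of loci), and under TNF 1 higher and 0 lower (2.57% and 1.56% of loci). The median was 0.19 under PBS and 0.13 under TNF, beside 0.09 and 0.00 over all loci, and siUXT was higher for 63 of the 76 genes under TNF, beside 5881 of 11845 loci. The PBS counts depended on scaling. With size factors 11 genes were 1.5-fold higher and 7 lower (12.5% and 23.7% of loci). At equal FPKM sums 13 were higher and 7 lower (14.8% and 24.8% of loci), the 13 with COX6B2, which is not among the 76.

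Limma called 0 of the 76 genes in this contrast, with a lowest Benjamini-Hochberg adjusted p of 0.324, and 3 loci higher and 0 lower. At an unadjusted p under 0.05 stood 16 of the 76 genes, all higher with siUXT (7.94% of loci were higher and 7.29% lower at that level). Fitted log2 differences were 1.20 ± 0.23 for NDUFA7, 0.76 for UQCR10, 0.69 for ATP5D, 0.67 for NDUFB7 and 0.61 for NDUFA11. On the other side they were -1.42 ± 0.60 for NDUFA5, -0.70 ± 0.44 for UQCRB, -0.70 ± 0.32 for NDUFB5, -0.45 ± 0.25 for ATP5J and -0.39 ± 0.34 for NDUFB3. In the TNF pair alone, the genes of the higher side were at 0.80, 0.55, 0.31, 0.57 and 0.42, in the order named. Those of the lower side were at -0.12, 0.23, -0.11, 0.00 and 0.23 in that pair. For this contrast, the fits without NC PBS and without NC TNF rest on the same siEZH1 and siUXT libraries and are not separate results. Without either NC library or without siEZH1 TNF, limma called NDUFA7 higher and NDUFA5 lower, beside 0.464% of loci higher and 1.49% lower without NC PBS, 0.456% and 1.5% without NC TNF, and 0.186% and 1.2% without siEZH1 TNF. Without siUXT TNF it called 35 of the 76 genes higher and 13 lower (30.1% and 27.2% of loci). Without siUXT PBS or siEZH1 PBS it called 0.

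With TNF the respiratory genes were within 1.5-fold of PBS in NC and in siEZH1, where 0 of the 76 were past that size. Over all 3 transfections 0 were past it the same way in each (0.979% of loci were higher and 0.0422% lower in each). In NC 3.4% of all loci were higher and 1.98% lower by that size, and in siEZH1 3.22% and 1.35%. Median log2 differences were 0.03 in NC and 0.05 in siEZH1, beside -0.02 and 0.01 over all loci, and both turned negative, at -0.02 and -0.01, when each library was rescaled to the same FPKM sum. In siUXT 8 of the 76 were at least 1.5-fold higher with TNF and 0 lower (16.8% and 3.61% of loci), and the median was -0.10. The 8 were the 6 genes low in siUXT PBS with ATP5J and NDUFB1, and their lowest library was siUXT PBS.

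Limma called 0 of the 76 genes for TNF over the 3 transfections, 0 had an unadjusted p under 0.05, and the lowest Benjamini-Hochberg adjusted p was 0.999. It called 48 loci higher and 1 lower (0.405% and 0.00844%), and at an unadjusted p under 0.05 2.92% of loci were higher and 1.04% lower. The largest fitted log2 differences were 0.38 for NDUFA5, 0.27 for UQCRB, 0.26 for NDUFB3 and NDUFB1 and 0.20 for NDUFS7, and on the lower side -0.23 for NDUFV3, -0.20 for SDHA, -0.16 for NDUFA10 and -0.13 for NDUFA2 and ATP5H. No fit that left out 1 library called any of the 76 for TNF.

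Some features of the genes moved with these differences. Their gene span, the length from first to last annotated base on GRCh38.p14, had a median of 10.6 kb (n = 75), against 30.9 kb for 9972 other protein-coding loci. The siEZH1 difference went with span, with Spearman correlations across the genes of 0.417 under PBS and 0.387 under TNF, and of 0.27 and 0.285 across the other loci. In siUXT the correlation was -0.235 under PBS and 0.338 under TNF, and -0.228 and 0.192 across the other loci. The 15 genes under 5 kb had median siEZH1 differences of -0.39 and -0.27, beside -0.20 and -0.22 for other loci of that span. Of the 8 genes low in both siEZH1 pairs, COX8A spans 1.92 kb, UQCR10 3.04, ATP5D and ATP5G1 3.08, NDUFB7 5.99, NDUFA11 12.6, NDUFA7 12.8 and ATP5G2 16.3 kb. Of the 6 low in siUXT PBS, UQCRB and NDUFC1 span 12.6 kb, NDUFB3 13.8, NDUFB6 20.2, NDUFB5 22.9 and NDUFA5 64.7 kb, so the spans of the groups overlap. These points share library, depth and base composition, and the part of span in the differences was not tested.

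**Figure D5:**
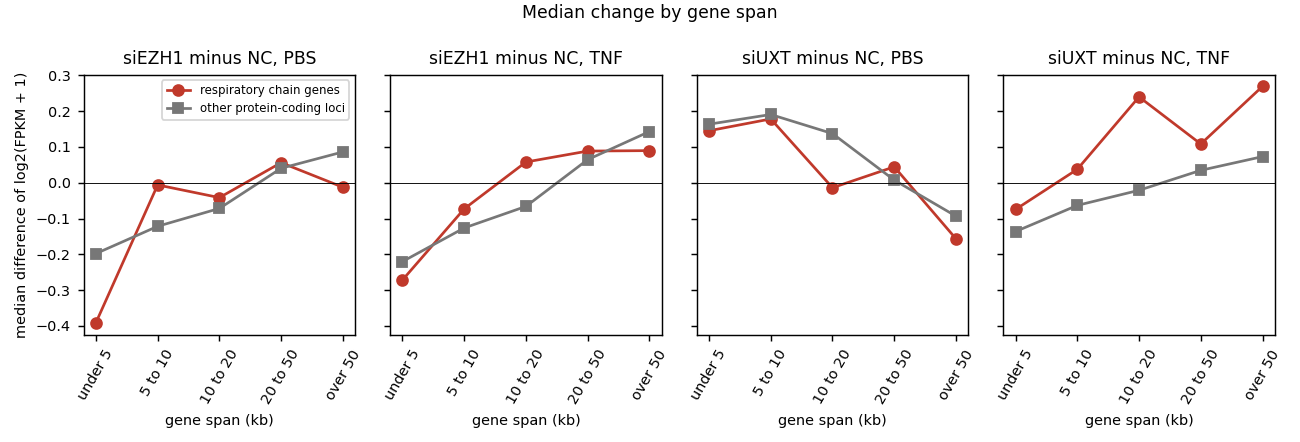
Median log2(FPKM + 1) difference from NC (y axis) by class of gene span in kb (x axis) for the respiratory chain genes (red; 15, 21, 23, 12 and 4 genes per class) and other protein-coding loci (grey), 1 panel per pair of libraries. The class under 5 kb lies lowest with siEZH1, with medians of -0.39 under PBS and -0.27 under TNF, and the classes over 20 kb hold few respiratory genes.

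Promoter GC content was lower than elsewhere, with a median of 59.8% (n = 62) against 65.3% (n = 8194). Its Spearman correlation with the siEZH1 difference was -0.087 under PBS and -0.125 under TNF, and with the siUXT difference 0.347 under PBS and -0.117 under TNF. The genes low in siUXT PBS that had a window, NDUFA5, NDUFB3, NDUFB6 and NDUFC1, held none of the 3 strings. Of those low with siEZH1, ATP5G1 and ATP5G2 also held none, ATP5D had no window, and the rest held different ones, as shown above. How many of all the genes with a window held none was not counted, so no contrast between the groups can be read from this. The part of promoter sequence in the differences was not tested.

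The genes that build and serve the chain, from lists chosen with earlier results of these data known, had 0 calls in limma for any contrast. Their lowest Benjamini-Hochberg adjusted p was 0.602 for siEZH1 and 0.908 for siUXT. The 15 complex I assembly factors had median differences of 0.05 and 0.04 with siEZH1 and 0.19 and 0.01 with siUXT (PBS and TNF). TMEM126B, an assembly factor of the complex I membrane arm, was at 34.1, 25.1, 37.8, 34.8, 15.7 and 29.7 FPKM. The 21 complex IV factors had medians of -0.02, -0.10, -0.16 and 0.04. LRPPRC, which binds mitochondrial mRNAs, was at 43.4, 31.3, 61.3, 52.9, 30.9 and 46.8 FPKM, with both siEZH1 libraries highest. SCO2, a copper chaperone of complex IV whose symbol shares values with TYMP, was at 38.6, 45.3, 24.3, 30.6, 49.6 and 44.5 FPKM, with both siEZH1 libraries lowest.

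Of partners outside the naming rule, cytochrome c (CYCS), which carries electrons from complex III to IV, was at 36.4, 30.2, 55, 42.8, 17.4 and 42.8 FPKM. USMG5, a small membrane subunit of the ATP synthase, was at 202, 205, 293, 314, 169 and 300 FPKM. Both were lowest in siUXT PBS and above NC in both siEZH1 libraries, the order seen in NDUFA5 and UQCRB. Among 15 tested regulators, the medians were 0.01, 0.03, 0.14 and 0.06. GABPA, the ETS factor named above, was at 7.31, 4.93, 7.75, 7.44, 2.39 and 6.15 FPKM. TFAM, which packages and transcribes mitochondrial DNA, was at 11.3, 11.3, 13.9, 11.8, 4.51 and 9.26 FPKM. Both were lowest in siUXT PBS. POLRMT, the mitochondrial RNA polymerase, was at 28.6, 34.9, 18.7, 23.0, 30.5 and 26.0 FPKM, lowest in the siEZH1 libraries, and the coactivator PPARGC1A was at or near 0.

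Other families gave a scale for these values. The 75 tested mitochondrial ribosomal protein genes had medians of -0.03 and 0.00 with siEZH1 and 0.03 and 0.02 with siUXT, close to those of the respiratory genes with siEZH1. The 80 cytoplasmic ribosomal protein genes had medians of 0.12, 0.17, 0.15 and 0.10, and 34 proteasome genes 0.10, 0.04, 0.13 and 0.19. The 13 citric acid cycle genes had medians of 0.02, 0.15, 0.17 and 0.13, and SUCLA2, a subunit of succinyl-CoA ligase, was at 16.9, 14.9, 21.7, 18.8, 7.18 and 17.1 FPKM. Whether the respiratory genes differ from these families was not tested.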

How the data were processed

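The 6 poly(A) RNA-seq libraries of HCT116 cells were used, and 10 chromatin samples of the series were not analysed here. The authors deposited 1 table of FPKM values by gene symbol for each library. FastQC, cutadapt, TopHat2, Bowtie and SICER, and build hg19, are named per the submitters' processing notes; which program made the FPKM values, with which annotation and strand setting, is not given in the sources. Each table lists 28502 symbols, and 19326 are above 0 somewhere. Symbols with identical values were merged into 17642 loci, and 11845 with a mean of at least 1 FPKM were tested. Of the tested members, 10 share values with another symbol and cannot be assigned to 1 gene: ATP5E, ATP5J2, ATP5O, COX6C, NDUFA11, NDUFA13, NDUFB2, NDUFB8, NDUFC2 and NDUFS3. Reads behind a value are not given, so depth is known only in relation to NC PBS, from low values under 0.4 FPKM at a tolerance of 2%, and exact zeros are read as listed at 0.

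Values were analysed as log2(FPKM + 1), which understates the change of low genes. The main test was limma 3.58.1 in R 4.3.3 (lmFit, eBayes with trend) with transfection and treatment as additive terms over all 6 libraries, 2 residual and 4.42 prior degrees of freedom, and Benjamini-Hochberg adjustment over the 11845 loci. Without 1 library the fit has 1 residual degree of freedom, and a lone library is assumed to vary like the others. The script was tested on simulated data. Single pairs of libraries are given as ratios of FPKM and as log2 differences with no test. Other computations used Python 3.11.15 with pandas 2.3.3, numpy 2.4.6, scipy 1.17.1 and matplotlib 3.10.9.

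Members and lists were chosen with earlier results of these data known. Named genes are, per contrast, the 8 largest negative and 5 largest positive fitted differences, genes 1.5-fold apart the same way in both treatments, the most abundant gene per complex, the catalytic and cofactor-bearing subunits (1 of which is not reported here), paralog sets, and up to 4 genes of each further list; genes past 1.5-fold in 1 pair, and the choice among list genes, were added after their values were seen. Of the 82 symbols, 81 matched RefSeq (GRCh38.p14), 17 under another current symbol. A planned comparison by protein length was replaced, after the tables were seen, by gene span and promoter GC content, since protein sequences were not used here. Alternatives were another pseudocount, no filter, 2 scalings, unmerged symbols, limma without trend, other fold sizes and leaving out each library.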

Additional observations from a re-analysis of the deposited data

Results flagged for a closer look

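NDUFB3, an accessory subunit of complex I, was set apart because its difference between siUXT and NC went one way under PBS and the opposite way under TNF. The log2 difference was -0.68 under PBS and 0.64 under TNF, each from 1 pair of libraries. It was the 1 respiratory chain gene at least 1.5-fold apart in opposite directions in the 2 siUXT pairs. The share of all loci that met this condition was not counted. The difference between the treatments was not tested, since each pair has no replicate. The siUXT PBS library, from which the first value comes, is also the lowest library for 15 of the 76 tested genes, a count not made for all loci.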

How the results depend on the processing

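No paired analysis was possible because the labels carry no replicate numbers and each condition has 1 library. Leaving out each library in turn moved limma's called loci from 2 to between 42 and 3132 for siEZH1, from 5 to between 46 and 3604 for siUXT, from 49 to between 126 and 328 for TNF, and from 3 to between 23 and 6783 for siUXT against siEZH1. Called respiratory genes went from 0 to between 0 and 35 for siEZH1, 0 and 29 for siUXT, and 0 and 48 for siUXT against siEZH1, and stayed 0 for TNF. These fits have fewer residual degrees of freedom, and which library was left out decided the count; the cause was not tested. Called loci were 0 for siUXT and 0 for siUXT against siEZH1 with a pseudocount of 0.1, 0 for siUXT against siEZH1 with size factors, and 23 for TNF with no filter.

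At log2 thresholds of 0.32 and 1, in place of that for 1.5-fold, the genes apart numbered 23 and 2 for siEZH1 PBS (30.7% and 0.802% of loci), 26 and 1 for siEZH1 TNF (39.2% and 1.16%), 25 and 2 for siUXT PBS (48.3% and 6.9%), and 29 and 0 for siUXT TNF (27.7% and 0.827%). For siUXT against siEZH1 they numbered 42 and 6 under PBS (67.1% and 12.5%) and 8 and 0 under TNF (21.1% and 0.718%). For TNF against PBS they numbered 6 in NC and 8 in siEZH1 at the lower threshold (22.5% and 18.2% of loci), and 27 and 3 in siUXT (48.4% and 7.04%). Rescaling to equal FPKM sums put 1 gene past 1.5-fold for TNF in siEZH1.

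Medians under size factors were -0.011 (siEZH1 PBS), -0.033 (siEZH1 TNF), 0.123 (siUXT against siEZH1, PBS), 0.083 (siUXT PBS), 0.039 (siUXT TNF), 0.046 (TNF in NC), 0.031 (TNF in siEZH1) and -0.049 (TNF in siUXT). At equal sums they were -0.043, -0.051 and 0.125 for the first 3 of these, 0.054 for siUXT PBS and 0.032 for siUXT TNF. With no filter siEZH1 TNF gave -0.03. The TNF medians reversed at equal sums, to -0.024 in NC and -0.014 in siEZH1.

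Of 468 values of 39 named gene differences under alternatives, 457 kept their direction and 11 reversed, all with 1 library left out. For siEZH1, leaving out each library gave -0.09 to 0.965 for UQCRB and -0.124 to 1.23 for NDUFA5, both lowest without siEZH1 PBS, and NDUFA5 was also negative, at -0.036, without NC TNF. For siUXT the ranges were -2.13 to 0.401 for NDUFA5, -0.932 to 0.197 for NDUFB6 and -0.951 to 0.227 for NDUFB5, highest without siUXT PBS, and -0.618 to 0.049 for COX8A, highest without siUXT TNF. For siUXT against siEZH1 they were -1.565 to 0.173 for UQCRB, -1.036 to 0.249 for NDUFB3 and -0.787 to 0.342 for NDUFB6, highest without siUXT PBS, and NDUFB6 gave 0.149 without siEZH1 PBS. The cause was not tested.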

Other observations

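Of the 8 genes that were at least 1.5-fold lower in both siEZH1 pairs, 4 (ATP5D, NDUFA7, NDUFA11 and NDUFB7) lie on chromosome 19. This feature was looked at after the values were seen. How many of all loci lower in both pairs lie on that chromosome was not counted. Of the 75 tested respiratory chain genes with a RefSeq position, 10 (13.3%) lie on that chromosome, against 710 of 9972 other protein-coding loci (7.12%). The 10 genes had median log2 differences of -0.60 under PBS and -0.53 under TNF with siEZH1, and the 65 elsewhere 0.01 and 0.02. The other loci of chromosome 19 had medians of -0.26 and -0.27, and other loci elsewhere 0.03 and 0.05. With siUXT the 10 genes had medians of 0.20 under PBS and -0.25 under TNF, and other loci of chromosome 19 0.24 and -0.15. Other loci of chromosome 19 had a median span of 16.2 kb, against 33.2 kb elsewhere, and the respiratory genes 9.38 kb on chromosome 19 and 10.9 kb elsewhere. The part of span in these medians was not tested.

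The siEZH1 pair under PBS and the siUXT pair under TNF share no library. Across the 76 respiratory genes their log2 differences had a Spearman correlation of 0.74, and across all loci 0.509. For the siEZH1 pair under TNF and the siUXT pair under PBS the values were -0.188 and -0.44. UQCR10, COX8A and ATP5G2 were at least 1.5-fold lower in both pairs of the first comparison. The share of all loci that met this condition was not counted. These are descriptions across genes, which share library, depth and base composition.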
